A study of Mus musculus with 4 samples.

Results

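The motile cilium is driven by an axoneme of doublet microtubules. Dynein motors apart, 58 genes named for its parts or for cilia were followed in cultured mouse astrocytes given an shRNA against Phf8. They are called axonemal genes here, though Cfap157 encodes a basal body protein and Cfap298 and Cfap300 are genes of dynein arm assembly. They were taken by name, as every protein-coding gene whose GENCODE M21 symbol begins with Cfap (cilia and flagella associated protein), Rsph (radial spoke head), Drc (dynein regulatory complex) or Tekt (tektin), together with Spag6, Spag6l, Spag16, Spag17, Spef1, Spef2, Hydin, Ccdc39, Ccdc40, Gas8 and Ak7 where listed. These are 58 of 55421 genes in the deposited count files, and no measured value entered the choice. In both groups C57BL/6J neural stem cells had been turned into astrocytes in serum-containing medium, and both were infected with lentivirus, carrying a control shRNA (shctr, replicates 1 and 2) or an shRNA for PHF8 (shPHF8, replicates 1 and 2). The control cells thus also carried a virus and an shRNA, and the labels do not say how many hairpins against Phf8 were used. RNA depleted of ribosomal RNA was sequenced, and 36839530 to 44724759 reads per library were assigned to genes. The replicates are described as biological, without saying whether they were separate cultures or infections, so p-values measure the spread between these libraries, which may be technical.

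In a motile axoneme, radial spokes reach from the outer doublets to a central pair of microtubules and pass signals to the dynein arms, and the nexin-dynein regulatory complex links neighbouring doublets and limits their sliding. Tektins and other inner proteins line the doublets, and a ruler made of CCDC39 and CCDC40 sets the spacing at which spokes and inner dynein arms dock. In the brain, motile cilia are known from ependymal and choroid plexus cells, while astrocytes and neural stem cells usually carry a primary cilium, which lacks spokes and a central pair. Levels are given as CPM, read counts scaled to a common library size adjusted by edgeR's TMM method, in the order control shRNA replicates 1 and 2, then Phf8 shRNA replicates 1 and 2. A gene was called when its Benjamini-Hochberg adjusted p, taken over all 21042 genes tested by edgeR's quasi-likelihood F test, was under 0.05.

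The targeted gene differed little in transcript level. Phf8, a histone demethylase gene, stood at 53.2, 53.0, 44.3 and 42.2 CPM, a log2 fold change of -0.30 ± 0.06 (SE) with an adjusted p of 1.72e-06 in edgeR. The protein was not measured. Mitochondrial ribosomal RNA took 21.2% and 22.5% of the reads in the control and 27.8% and 28.2% in the Phf8 shRNA libraries. With mitochondrial and the 20 most abundant genes left out, 37 of the axonemal genes were still called lower, as in the full data. The defining astrocyte genes were present in every library, with Slc1a3, a glutamate transporter gene, at 1804, 1819, 1922 and 1802 CPM. Gfap, the astrocyte intermediate filament gene, was at 4076 and 3860 CPM in the control and 1318 and 1023 CPM in the Phf8 shRNA libraries, and the water channel gene Aqp4 at 1322, 1350, 582 and 481 CPM. Among 12 astrocyte markers 7 were called lower, with Fgfr3, Aldoc, Sox9, S100b and Aldh1l1 lower by 1.24-fold to 1.90-fold. Another 4 were called higher with Phf8 shRNA, Gjb6 by 1.81-fold. The glutamate transporter gene Slc1a2 was at 135, 135, 967 and 981 CPM (7.2-fold higher), the glutamine synthetase gene Glul at 283, 278, 635 and 607 CPM (2.22-fold) and the connexin gene Gja1 at 677, 675, 907 and 815 CPM (1.27-fold).

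The axonemal genes were expressed in the control astrocytes and most were lower with Phf8 shRNA. Their summed level was 611.6 and 621.7 CPM in the control and 296.7 and 284.9 CPM in the Phf8 shRNA libraries. Of the 58 genes, 50 passed the low-count filter, and of these 37 were called lower, 2 were called higher and 11 were not called. Over all genes tested, 52.1% were called in either direction, 27.3% were called lower and 24.8% higher. Of the 14109 protein-coding genes tested, the type to which all 58 belong, 35.2% were called lower and 25.2% higher. The fall was at least 2-fold for 30 of the 37 and at least 4-fold for 20, where 8.71% and 3.2% of all genes tested were called lower by as much. The median log2 fold change was -1.42 over the 50 genes and 0.01 over all genes tested. In 42 of the 50 both control libraries lay above both Phf8 shRNA libraries, against 36.7% of all genes tested. In 4 both lay below, against 37.2% of all genes tested. Among the 14109 protein-coding genes tested, both control libraries lay above in 6317 and below in 4950.

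The count of genes lower depends in part on which genes could be tested. Among the 50, 12 met the filter level of 0.242 CPM in 2 libraries through the control group alone, and a gene that passed in this way could only be seen to fall. They were Rsph14, Cfap206, Drc7, Hydin, Cfap221, Cfap65, Cfap99, Ak7, Cfap52, Cfap77, Tekt4 and Cfap97d1, of which 10 were called lower. Of the 38 genes that met this level in both groups, 27 were called lower, 2 higher and 9 not called (median log2 fold change -1.11). A different set of 38 genes had a mean over all 4 libraries of at least 1 CPM, and it includes some of the 12, such as Cfap52 and Drc7. In that set 30 were called lower and 2 higher, while 31.8% of all genes at that level were called lower. Fewer cells with such an axoneme and less of these transcripts per cell cannot be told apart in bulk RNA.

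Per unit of transcript length the genes covered a wide range. Levels between genes are compared as TPM, a length-corrected share of the library computed from the counts and the exonic length in GENCODE M21. In the control libraries Cfap36, whose product binds the ciliary GTPase ARL3, was highest at a mean of 108 TPM, followed by Cfap300 at 30.7, Gas8 at 28.6, Cfap44 at 28.2 and Drc1 at 25.3 TPM. The mean was at least 1 TPM for 39 of the 58 genes in the control and for 25 in the Phf8 shRNA libraries, and at least 10 TPM for 12 and 5. The order changed between groups. Cfap52 went from rank 8 at 19.1 TPM to rank 36 at 0.357 TPM, whereas Cfap20 went from rank 6 at 21.3 TPM to rank 2 at 17.4 TPM.

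**Figure D1:**
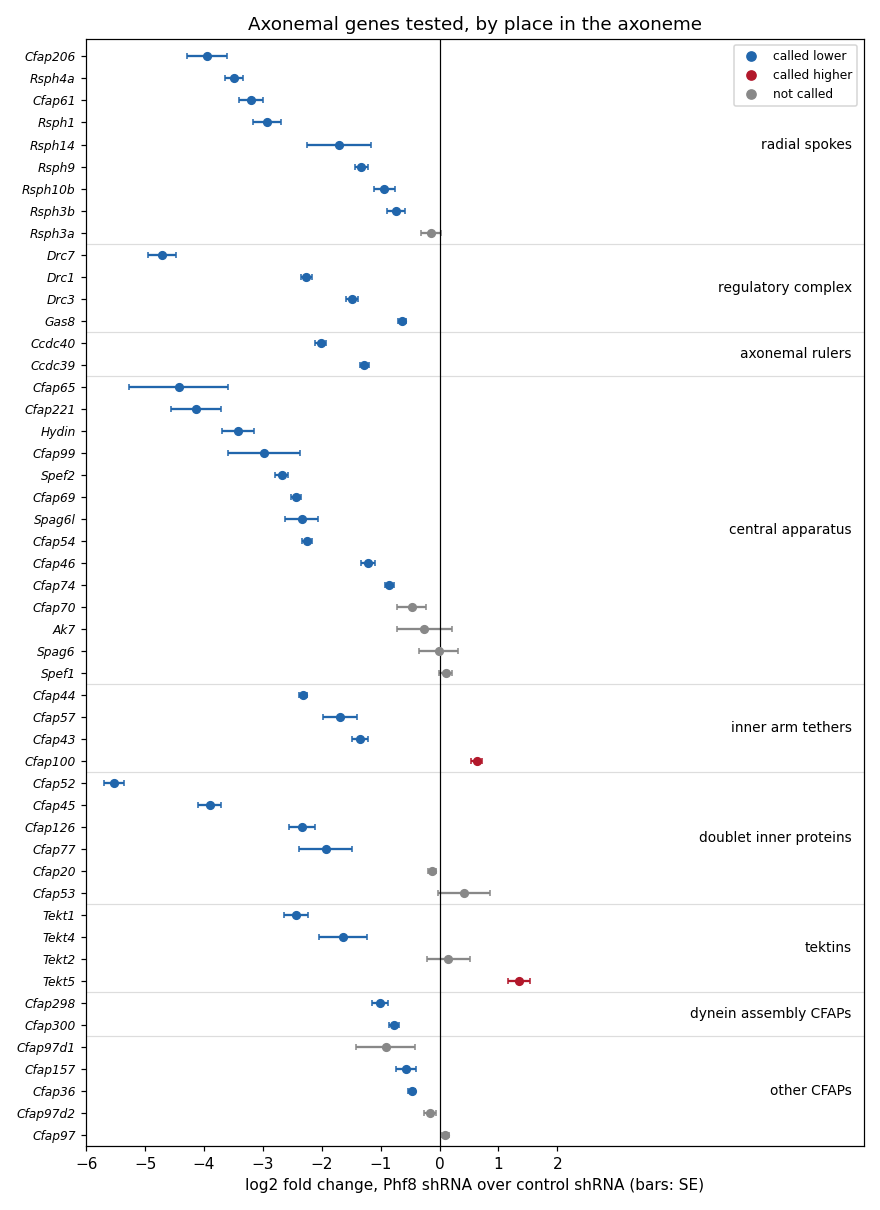
Log2 fold change of Phf8 shRNA over control shRNA (horizontal axis) for the 50 axonemal genes tested, grouped by place in the axoneme; points are fitted values, bars are SE, and colour gives the call. Points lie left of 0 in every group, with Cfap52 farthest left at -5.53 and Cfap100 and Tekt5 called to the right.

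The genes lie on 18 chromosomes. Drc7 (log2 fold change -4.71) and Cfap20 (-0.13) are 342 kb apart on chromosome 8. Promoters are shown because many of these genes moved together. The X-box, the site bound by RFX factors, which act on ciliary genes, is made of a pair of inverted arms, GTTGCC and GGCAAC in their common form. In RefSeq promoters (build GRCm38.p6, 250 bases before to 50 bases after a start site), 48 of the 58 genes had an entry. GTTGCC on either strand was present in 21 of the 48 genes (43.8%), against 14.0% of 16514 protein-coding genes and 12.5% of all 32851 promoters in that table. At least 2 arms in a promoter were found for 8 of the 48 (16.7%) and for 1.22% of protein-coding genes. The arm was present in 13 of 31 genes called lower (41.9%) and in 8 of the other 17 (47.1%). The difference between those shares was not tested. The 17 were 2 genes called higher, 9 not called and 6 not tested for few reads, with the arm in 1, 4 and 3 of them. The 6 promoters printed are those of Cfap298, with the most arms, of the lower genes Cfap44, Tekt1, Drc1 and Spef2, and of Cfap100, which was higher. They were chosen after the values were seen. For Cfap298, Tekt1 and Cfap100 the whole window lies inside the gene as GENCODE M21 gives it, so the RefSeq start site is not the M21 start. Capitals mark GTTGCC or GGCAAC, 5′ to 3′ on the strand of the gene.
Cfap298 (chr16:90934800-90935099, minus strand): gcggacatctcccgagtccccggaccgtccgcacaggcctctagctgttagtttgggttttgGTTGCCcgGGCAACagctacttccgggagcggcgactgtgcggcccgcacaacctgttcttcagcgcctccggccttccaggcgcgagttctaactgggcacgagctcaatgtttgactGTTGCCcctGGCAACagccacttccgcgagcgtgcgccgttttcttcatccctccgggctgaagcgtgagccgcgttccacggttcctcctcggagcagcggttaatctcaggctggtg
Cfap44 (chr16:44394549-44394848, plus strand): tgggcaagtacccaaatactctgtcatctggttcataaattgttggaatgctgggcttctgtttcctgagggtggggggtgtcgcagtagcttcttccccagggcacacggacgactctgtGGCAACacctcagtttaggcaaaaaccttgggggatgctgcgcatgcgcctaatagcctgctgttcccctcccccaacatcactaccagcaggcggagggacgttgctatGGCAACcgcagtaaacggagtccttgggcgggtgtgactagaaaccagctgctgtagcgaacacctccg
Tekt1 (chr11:72361833-72362132, minus strand): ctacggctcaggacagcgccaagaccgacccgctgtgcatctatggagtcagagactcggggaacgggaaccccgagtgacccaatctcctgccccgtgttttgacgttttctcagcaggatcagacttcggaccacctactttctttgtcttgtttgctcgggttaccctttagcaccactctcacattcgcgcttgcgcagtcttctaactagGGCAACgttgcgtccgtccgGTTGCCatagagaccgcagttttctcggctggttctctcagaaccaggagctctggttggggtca
Drc1 (chr5:30281143-30281442, plus strand): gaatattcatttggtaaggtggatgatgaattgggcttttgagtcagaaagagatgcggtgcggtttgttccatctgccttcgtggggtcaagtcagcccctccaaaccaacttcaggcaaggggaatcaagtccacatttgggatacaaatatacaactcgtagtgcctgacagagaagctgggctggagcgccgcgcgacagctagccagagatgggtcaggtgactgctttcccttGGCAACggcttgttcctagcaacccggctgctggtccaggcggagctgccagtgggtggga
Spef2 (chr15:9748819-9749118, minus strand): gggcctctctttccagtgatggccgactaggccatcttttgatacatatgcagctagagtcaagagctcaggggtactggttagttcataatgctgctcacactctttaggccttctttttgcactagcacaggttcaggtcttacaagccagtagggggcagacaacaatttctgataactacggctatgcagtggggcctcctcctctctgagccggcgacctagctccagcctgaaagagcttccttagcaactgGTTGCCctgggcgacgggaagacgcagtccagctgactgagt
Cfap100 (chr6:90428431-90428730, minus strand): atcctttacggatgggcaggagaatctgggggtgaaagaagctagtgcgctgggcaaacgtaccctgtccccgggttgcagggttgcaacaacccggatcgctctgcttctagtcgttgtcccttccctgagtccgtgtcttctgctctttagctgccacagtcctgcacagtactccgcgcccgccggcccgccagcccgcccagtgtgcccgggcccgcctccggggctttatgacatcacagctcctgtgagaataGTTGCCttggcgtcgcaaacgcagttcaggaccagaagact

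Cfap298 carries 2 facing pairs of arms. The first, GTTGCCCGGGCAAC, begins 188 bases before the start site and matches the degenerate X-box searched on both strands, GTTNCC and GGNAAC with 2 bases between them, which 0.451% of all promoters in the table hold, and the second, GTTGCCCCTGGCAAC, begins 69 bases before it and matches the form with 3 bases between the arms. No other gene of the 48 held GTTNCC followed by GGNAAC with 1, 2 or 3 bases between them. The opposite order was not searched, and Spag16, which was not tested, holds GGCAAC and then GTTGCC, 111 and 103 bases before the start site. In Cfap44 the arms begin 129 and 19 bases before the start site, in Tekt1 35 and 15 bases before it and in Drc1 11 bases before it. Arms that differ from the searched forms by a base, such as gttgct, which lies 2 bases before the second arm of Cfap44, were not searched. In Spef2 and Cfap100 the arm begins at bases 9 and 10 after the start site. The forkhead motif GTAAACA was searched on both strands as the form bound by FOXJ1 and its relatives. It was present in 4 of the 48 genes (8.33%, against 3.49% of protein-coding genes), Ak7, Cfap20, Cfap43 and Tekt3. Of the 31 genes called lower 1 held it (3.23%), Cfap43, while Ak7 and Cfap20 were not called and Tekt3 was not tested. GTTGCC is a form of the X-box arm, so those searches overlap. These matches describe letters in a short window and not binding.

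Radial spoke genes were lower in 8 of 9 tested, with a median log2 fold change of -1.70. Rsph4a, a spoke head gene, was at 10.4 and 10.4 CPM in the control and 0.901 and 0.953 CPM in the Phf8 shRNA libraries. Its fall was 11.2-fold (log2 fold change -3.49 ± 0.15 SE, edgeR adjusted p = 1.9e-113), and the groups were far apart. Rsph1 and Rsph9, which encode the other core head proteins, went different distances. Rsph1 was at 2.68, 3.66, 0.439 and 0.381 CPM, a 7.62-fold fall, and Rsph9 at 11.6, 10.8, 4.51 and 4.38 CPM, a 2.51-fold fall. Variants in RSPH1, RSPH4A and RSPH9 are known causes of primary ciliary dyskinesia. Cfap61, a gene of the calmodulin-associated complex at the spoke base, was at 5.01, 5.37, 0.555 and 0.572 CPM and fell 9.18-fold. Cfap206, needed at the base of a spoke, had 100 and 83 control reads and 7 and 4 Phf8 shRNA reads, a ratio of 15.8 after scaling for library size (95% exact binomial interval 8.63 to 32.2, counting error only).

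Of the remaining spoke genes 3 were called lower, 1 was not called and 1 was not tested. Rsph10b fell 1.91-fold, and 13.2% of its exonic length lies under genes of the same strand, chiefly Pms2, which was not called (log2 fold change 0.02). Rsph14, at 0.333 ± 0.0467 CPM in the control (SD, n = 2), was called lower by 3.26-fold (log2 fold change -1.70 ± 0.55 SE) with an edgeR adjusted p of 0.00454. It lost the call in DESeq2 (0.117), without control shRNA replicate 2 (0.0954) and without Phf8 shRNA replicate 2 (0.0964), while its log2 fold change stayed between -1.98 and -1.50 over the alternatives run. The stalk genes Rsph3a and Rsph3b are close copies that share 54.4% and 54.3% of their 50-base words. Reads from the shared stretches can be counted to the wrong copy or discarded. Rsph3b was at 4.69, 4.42, 2.82 and 2.61 CPM and was called lower, and Rsph3a was at 2.68, 2.56, 2.43 and 2.31 CPM and was not (adjusted p = 0.509 in edgeR). The difference between them was not tested, and their separate levels are uncertain. Rsph6a, a spoke gene of sperm, had 7 reads over all libraries and was not tested.

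All 4 genes of the nexin-dynein regulatory complex tested were lower. Drc1, which encodes a scaffold of the complex, was at 23.0, 21.5, 4.48 and 4.79 CPM, a 4.81-fold fall (log2 fold change -2.27 ± 0.09 SE). Drc7 showed the deepest fall of the 4, from 6.28 and 5.67 CPM to 0.254 and 0.191 CPM, with 504 control and 18 Phf8 shRNA reads and a ratio of 26.6 (95% exact binomial interval 16.7 to 45.2). Drc3 was at 14.6, 14.3, 5.01 and 5.31 CPM and fell 2.81-fold. Gas8, whose product (DRC4) is also found in cells without motile cilia, was at 37.9, 37.3, 23.2 and 25.3 CPM. Its fall of 1.55-fold was the smallest of the 4, and both groups still stood apart.

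Both ruler genes were lower. Ccdc40 was at 20.2, 17.8, 4.51 and 4.87 CPM and fell 4.06-fold. Ccdc39, which encodes its partner, was at 35.2, 36.0, 15.6 and 13.7 CPM and fell 2.42-fold. Of the exonic length of Ccdc39, 16.9% overlaps Ttc14 on the opposite strand, and whether reads were counted by strand is unknown here. Ttc14 was at 116, 125, 119 and 120 CPM and was not called.

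Among central apparatus genes 10 of 14 tested were lower and 4 were not called, with a median log2 fold change of -2.30. Cfap54, a gene of a projection of the C1 microtubule, was at 37.0, 40.3, 8.34 and 7.84 CPM, a 4.76-fold fall (edgeR adjusted p = 9.7e-183). Cfap69 was at 26.5, 28.7, 5.08 and 5.09 CPM and fell 5.42-fold. Spef2, whose product belongs to a C1 projection too, was at 17.2, 17.8, 2.84 and 2.59 CPM and fell 6.41-fold. Hydin, a gene of the C2 projection whose loss causes hydrocephalus in mice, was at 2.63, 3.35, 0.347 and 0.191 CPM and fell 10.8-fold (log2 fold change -3.43 ± 0.27 SE). In each of these 4 genes the lowest control library was above the highest Phf8 shRNA library by a wide margin.

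Cfap46 and Cfap74 fell less, by 2.31-fold and 1.80-fold. Several central apparatus genes were low already in the control. Cfap221 had 51 and 64 control and 6 and 0 Phf8 shRNA reads, a ratio of 18.2 (95% exact binomial interval 8.11 to 50.6). Cfap65 had 28 and 1 reads, a ratio of 26.6 (4.40 to 1088), and Cfap99 had 35 and 4, a ratio of 8.31 (2.97 to 32.2). All 3 were called lower, and the size of the fall rests on single libraries. Without Phf8 shRNA replicate 1 the log2 fold change of Cfap99 was -2.30 and without replicate 2 it was -4.00, against -2.98 with both. It was -3.27 for Cfap221 without Phf8 shRNA replicate 2 and -3.47 for Cfap65 without replicate 1, against -4.14 and -4.43, and in the opposite omission the library left has 0 reads and gives no fold.

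Of the central apparatus genes that were not called, Spef1 had the highest level. Spef1, which encodes a microtubule-bundling protein also found in epithelia, was at 6.33, 6.13, 6.70 and 6.72 CPM (log2 fold change 0.11 ± 0.11 SE). Of its exonic length 12.7% lies opposite Cdc25b and Gm14232, and Cdc25b was higher, at 5.11, 4.54, 9.20 and 9.31 CPM. Spag6 and Spag6l encode related central pair proteins and differed in their values. Spag6l was at 1.85, 1.86, 0.416 and 0.299 CPM and was called lower, and Spag6 was at 0.577, 0.562, 0.485 and 0.653 CPM and was not called, with overlapping groups. They share 0.535% and 0.391% of their 50-base words, and the difference between them was not tested. Cfap70 (1.32, 1.37, 0.901 and 1.03 CPM, edgeR adjusted p = 0.0897) and Ak7, an adenylate kinase gene (0.323, 0.244, 0.277 and 0.191 CPM), were not called either. Spag16 and Spag17 had at most 9 reads in a library and were not tested.

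Genes that tether or modify inner dynein arms were lower in 3 of 4 tested. Cfap44 (chr16:44394796-44482428, build mm10) had the most reads of the 3, at 75.0, 80.6, 16.3 and 14.9 CPM, and fell 4.98-fold (log2 fold change -2.32 ± 0.06 SE, edgeR adjusted p = 3.2e-275). Cfap43, which encodes its partner in the tether, was at 6.35, 6.79, 2.52 and 2.64 CPM and fell 2.55-fold. Cfap57 was at 1.22, 1.54, 0.416 and 0.436 CPM and fell 3.23-fold. Cfap100 (chr6:90403479-90428797), a modifier of inner arms, went the other way, at 8.64, 7.94, 12.9 and 12.8 CPM, and was called higher by 1.55-fold (log2 fold change 0.63 ± 0.09 SE). Its partner Cfap73 had 7 reads over all libraries and was not tested.

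Inner proteins of the doublet microtubules held the largest fall of the set. Cfap52 (chr11:67924806-67965651, build mm10), which encodes a protein inside the B-tubule, was at 15.2, 13.9, 0.393 and 0.218 CPM, with 1227 control and 25 Phf8 shRNA reads and a ratio of 46.6 (95% exact binomial interval 31.4 to 72.3). Cfap45, another B-tubule inner protein gene, was at 7.09, 7.23, 0.416 and 0.544 CPM and fell 15.0-fold. Cfap126 (Flattop) was at 3.30, 3.30, 0.693 and 0.599 CPM and fell 5.06-fold, and Cfap77, at 0.577, 0.586, 0.162 and 0.136 CPM, fell 3.82-fold.

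Cfap20, which encodes a protein of the junction between the A- and B-tubules and is also present in cells with primary cilia, was at 30.7, 31.4, 29.0 and 27.9 CPM. It was not called (log2 fold change -0.13 ± 0.06 SE, edgeR adjusted p = 0.0893), and with library size alone as scaling it was called lower (adjusted p = 0.0108). Cfap53 was at 0.277, 0.244, 0.347 and 0.354 CPM and was not called. Cfap161 had 9 reads in all and was not tested.

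**Figure D2:**
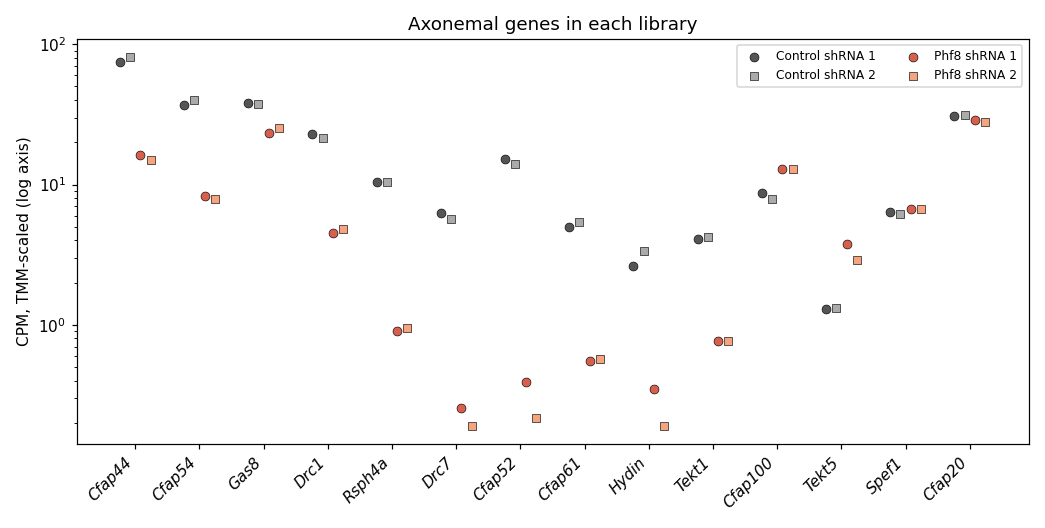
CPM (vertical log axis, TMM-scaled) of 14 axonemal genes, 1 point per library (dark and light grey, control shRNA replicates 1 and 2; red and light orange, Phf8 shRNA replicates 1 and 2). From Cfap44 to Tekt1 both grey points lie above both Phf8 shRNA points, most widely for Cfap52, while Cfap100 and Tekt5 are reversed and the points of Spef1 and Cfap20 lie close together.

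The tektins, filament proteins along the doublets, moved in both directions. Tekt1 was at 4.11, 4.20, 0.763 and 0.762 CPM and fell 5.43-fold (log2 fold change -2.44 ± 0.20 SE), and Tekt4, at 0.716, 0.537, 0.254 and 0.136 CPM, fell 3.12-fold. Tekt5 (chr16:10357948-10395490), best known from sperm flagella, was at 1.29, 1.32, 3.74 and 2.89 CPM and was called higher by 2.55-fold (log2 fold change 1.35 ± 0.19 SE, edgeR adjusted p = 2.1e-12). It was the only axonemal gene tested that was called higher by at least 2-fold, as were 5.5% of all genes tested. Tekt2 was not called, at 0.323, 0.537, 0.439 and 0.517 CPM with overlapping groups, and Tekt3 had 2 reads in all.

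The genes of dynein arm assembly were lower by less. Cfap300 was at 15.9, 16.1, 9.52 and 9.23 CPM and fell 1.71-fold. Cfap298, whose promoter holds 4 X-box arms, was at 6.01, 5.13, 2.54 and 2.99 CPM and fell 2.02-fold. Of its exonic length 53.6% lies opposite 4930534H18Rik and Gm49727, neither of which was called or exceeded 0.708 CPM in a library.

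The other CFAP genes had the median log2 fold change nearest to 0 of the groups by place in the axoneme, -0.47 over 5 tested. Cfap36, the gene with the most reads of the 58, was at 96.6, 97.5, 73.2 and 66.6 CPM and fell 1.39-fold. Cfap157, which encodes a basal body protein, was at 3.07, 3.42, 2.03 and 2.37 CPM (edgeR adjusted p = 0.00188). It lost the call in DESeq2 (0.0548) and without control shRNA replicate 2 (0.0607). Cfap97, at 26.1, 25.4, 28.9 and 25.6 CPM with overlapping groups, was not called, and with upper-quartile scaling it was called higher (edgeR adjusted p = 0.0164). Cfap97d1 and Cfap97d2 were not called (log2 fold changes -0.91 and -0.17). Cfap299 had 6 and 10 control reads and 0 in both Phf8 shRNA libraries, which at a floor of 3 reads over the group is at least 5.07-fold lower. The lower limit of the 95% exact binomial interval of that ratio, the measure used for the other genes with few reads, is 3.66. Cfap58 had 2 reads in all.

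Most axonemal genes that carry other symbols were lower too. In a list of 34 such genes 32 were matched and 28 tested, of which 25 were lower, 0 higher and 3 not called, with a median log2 fold change of -1.83. Its smallest p-values were those of Iqcg (DRC9; 41.6, 43.5, 8.11 and 7.49 CPM), Wdr78 (53.7, 56.8, 16.2 and 14.3 CPM) and Nme5 (23.1, 21.5, 3.40 and 3.38 CPM), and 48.1% of the exonic length of Iqcg lies opposite Lrch3. The list also holds partners of the genes above under older names. Maats1 (CFAP91) and Wdr66 (CFAP251), which form the spoke-base complex with CFAP61, were at 4.71, 5.30, 0.370 and 0.327 CPM and at 6.68, 6.57, 1.48 and 1.71 CPM. Ccdc65 (DRC2), the partner of DRC1, was at 3.70, 3.98, 0.532 and 0.653 CPM. Some of the 25 lower genes of this list, such as Wdr63 and Ccdc113, met the filter level through the control group alone. They could only be seen to fall. Of 17 axonemal dynein chain genes tested, 14 were lower and 3 not called (median -0.85), led by Dnah9 at 62.9, 64.1, 4.69 and 4.36 CPM, Dnah10 at 96.1, 92.9, 5.06 and 3.24 CPM and Dnah6 at 19.6, 19.4, 0.624 and 0.572 CPM.

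Genes of intraflagellar transport, which builds primary and motile cilia alike, were lower by smaller amounts. Of 22 tested, 21 were lower and 1 was not called, with a median log2 fold change of -0.81 and a range from -1.77 (Ttc30b) to -0.12 (Ttc21b). At least a 2-fold fall was seen in 6 of the 22, and a 4-fold fall in 0. Among the 50 axonemal genes 20 fell at least 4-fold, including Cfap52, Drc7, Hydin, Cfap206, Cfap221, Cfap65 and Cfap99. Those named passed the low-count filter through the control group alone and could only be seen to fall. The difference between the lists was not tested.

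**Figure D3:**
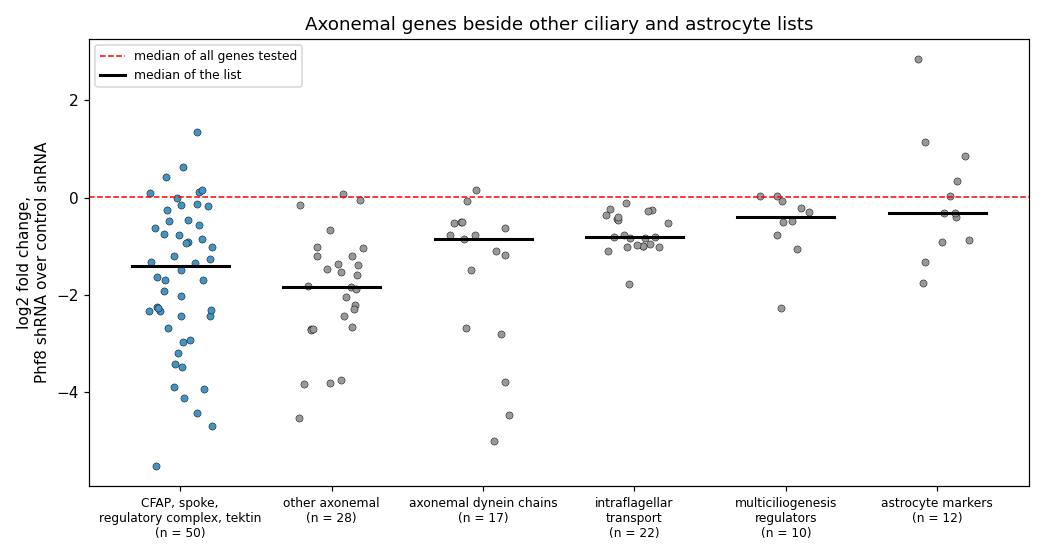
Log2 fold change of Phf8 shRNA over control shRNA (vertical axis) for each tested gene of 6 lists; black bars are list medians and the dashed line is the median of all genes tested, 0.01. The axonemal genes spread from -5.53 to 1.35 around a median of -1.42, and the intraflagellar transport genes lie between -1.77 and -0.12.

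Of 16 regulators of multiciliated cells 10 were tested, of which 6 were lower, 0 higher and 4 not called (median -0.39). Foxj1, the master factor of motile ciliogenesis, was at 144, 135, 29.5 and 28.4 CPM and fell 4.81-fold. Rfx2 was at 47.8, 46.0, 22.8 and 22.2 CPM and fell 2.08-fold, and Rfx3 at 305, 323, 262 and 247 CPM fell 1.23-fold. Rfx4, Rfx1 and E2f5 were the others called lower, by 1.41-fold, 1.40-fold and 1.16-fold. E2f4 was at 19.7, 17.2, 17.7 and 19.8 CPM and Tfdp1 between 41.0 and 45.2 CPM, and neither was called, nor were Myb and Ccno, which stayed under 1 CPM in every library. The 6 that were not tested were Foxn4 at 0 reads, Mcidas, Gmnc, Deup1 and Cdc20b at no more than 1 read in a library, and Trp73 at no more than 4.

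Markers of other cell types differed between the groups too. The 12 ependymal markers summed to 306.1 and 299.9 CPM in the control and 103.8 and 100.7 CPM in the Phf8 shRNA libraries, with Foxj1 and Cd24a providing most of it. Of the 12, 7 were tested and were lower, and 5 were not tested, where 27.3% of all genes tested were called lower. Besides Foxj1 and Cd24a, those lower were Ccdc153 (20.6-fold), Tm4sf1 (11.6-fold), Dynlrb2 (7.31-fold), Fam183b (3.54-fold) and Rarres2 (2.05-fold, with overlapping groups). Ccdc153 and Rarres2, like the choroid plexus markers Folr1 and Sostdc1, met the filter level through the control group alone. Such genes could only be seen to fall. Of those not tested, Tmem212, Sntn and 1700012B09Rik had at most 2 reads in a library. Pifo had 13 reads, all in the control, and Mia had 12, 8, 3 and 7 reads. Of 9 choroid plexus markers 2 were lower (Folr1 and Sostdc1), 2 not called (Aqp1 and Kcnj13) and 5 not tested (5.61 and 5.96 CPM summed in the control, 2.54 and 2.97 CPM with Phf8 shRNA), and Ttr and Otx2 had at most 2 reads in a library. Of 12 sperm markers 1 was higher and 1 lower of 2 tested, the sums were 1.15, 1.22, 1.22 and 1.52 CPM, and Akap4, Odf1, Smcp and Pgk2 were at 0. Neuron and oligodendrocyte lineage markers were higher (7 of 8 and 9 of 10 tested), summing to 1155, 1195, 1900 and 1895 CPM and to 689.7, 644.0, 1195 and 1162 CPM. Microglia markers summed to 22.3, 22.4, 15.7 and 16.7 CPM, with 2 of 5 tested lower. Of 12 astrocyte markers 7 were lower and 4 higher, and of 8 neural stem cell markers 3 were lower and 4 higher. The part of such cells in the levels of the axonemal genes was not tested.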

How the data were processed

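RNA was measured in 4 libraries of mouse astrocytes, 2 per group, grouped by sample title. The deposited files give a whole-number count of reads per gene, made by the authors from their reads. HISAT2, HTSeq, DESeq2 and the mm10 build are named, without roles, in the submitters' processing notes. Annotation release and strand setting: not given in the sources used here. Symbols, gene types, exonic lengths and overlaps came from GENCODE M21, which held 55240 of 55421 identifiers and gave all 58 axonemal genes the deposited coordinates.

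Counts were fitted with edgeR 4.0.16 in R 4.3.3 without covariates (filterByExpr, TMM, quasi-likelihood F test, two-sided, Benjamini-Hochberg adjustment). Each standard error is the log2 fold change over the root of F. The fit was tested on simulated counts. Ratios of reads carry exact binomial intervals (Clopper-Pearson, 95%), which cover counting error only. Promoter sequences are RefSeq's. The genes, lists and tests were chosen with earlier results of these data known. The rule for naming took every tested gene, with the values of all libraries for up to 4 called and 4 uncalled genes per group, and up to 3 genes of each other list. Further values were given for an overlap, a close copy, few reads or a lost call. These values, the pair spacings in promoters and the split at a mean of 1 CPM were chosen after values were seen. Partners under older names (Maats1, Wdr66, Ccdc65), further members of the other lists and genes opposite a named gene were added after their values were seen. Alternatives used DESeq2 1.42.0 and limma 3.58.1, other scalings and filters, the replicate block and left-out libraries.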

Additional observations from a re-analysis of the deposited data

How the results depend on the processing

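The 37 axonemal genes called lower numbered 34 to 38 when each library was left out in turn, and the 2 called higher stayed at 2. The replicate number as a block gave 37 lower and 2 higher, and 10929 genes called over all. The numbers are not stated to mark a shared culture, and the differences between replicates 1 and 2 were uncorrelated between groups (r = -0.00102 across genes). DESeq2 called 35 lower, the filter at 1 CPM in 2 libraries 32 of 40 tested, and no filter 38 of 58. The median log2 fold change ran from -1.47 with library size alone to -1.34 with upper-quartile scaling. No axonemal gene that was called changed direction in the alternatives run. With the biological coefficient of variation set to 0.2, in place of the 0.0364 estimated, 3305 genes were called in place of 10965, 32 axonemal genes were lower and 1, Tekt5, was higher. Cfap36, Gas8, Rsph3b, Cfap300, Cfap157 and Cfap100 lost their calls there, since a larger spread was imposed. Upper-quartile scaling called 6640 genes higher and 4811 lower, 58.0% higher against 47.7% with TMM, and 3 axonemal genes higher; library size alone gave 40.3%. GTTGCC was present in 11 of the genes on the plus strand and in 16 on the minus strand, against 21 on either. Calls rest on 2 libraries per group, and genes that did not reach 0.242 CPM in 2 libraries were not tested.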
